A study of Mus musculus with 3 samples.

Results

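The cells described here are stimulated CD4+ T cells in which at least 1 unique molecular identifier (UMI, the tag that marks 1 captured RNA molecule) of *Tbx21* was counted. *Tbx21* encodes T-bet, the transcription factor that directs CD4+ T cells to the T helper 1 (Th1) fate. The cells were chosen by that count, among barcodes with a minimum of about 4100 UMIs and under 15% mitochondrial UMIs. There were 929 such cells among the 14846 stimulated cells that passed this filter, and among 32505 barcodes in all, namely 834 of 7602 in the WT library and 95 of 7244 in the IFT20-KO library. They are called *Tbx21*-positive cells below, and the cells of the same filter with 0 *Tbx21* UMIs are called *Tbx21*-zero cells.

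The study asked what the intraflagellar transport protein IFT20, best known for its part in building cilia, does when CD4+ T cells are activated. Splenic CD4+ T cells of WT mice (Ift20 f/f) and IFT20-KO mice (Ift20 f/f with Cre under the *Cd4* promoter, which is active from thymic development on) were enriched for naive cells and exposed for 24 h to antibodies against CD3 and CD28, each at 1 μg/mL. Live CD3+CD4+ cells were then sorted and sequenced singly. All mice were C57BL/6, and WT cells kept in buffer without stimulation made up the remaining library. Each of the 3 conditions was 1 library, so no value has a replicate, no test was made, genotype and library cannot be told apart, and every 95% interval below covers counting error only.

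In a CD4+ T cell, T-bet is known to be induced by T cell receptor signals together with interferon-γ, and later by interleukin-12 acting through STAT4. Interferon-γ receptor signaling also switches on a set of genes of its own, which includes guanylate-binding proteins (*Gbp* genes), immunity-related GTPases (*Igtp*, *Irgm1*, *Iigp1*), the transcription factors *Irf1* and *Irf8*, and genes of antigen processing. Among the promoter elements of such genes are the gamma-activated sequence (GAS) and the interferon-stimulated response element (ISRE), which interferon regulatory factors bind.

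The promoters of 4 of the genes that led in *Tbx21*-positive cells of both libraries are shown, because these genes were higher together and their promoters hold GAS or ISRE letters. Each line is the 250 bases before a RefSeq start site in GRCm38.p6, 5′ to 3′ on the plus strand, with the GAS (TTCNNNGAA) or ISRE (GAAA, any 2 bases, then GAAA) matches in capitals. They lie at chr11:53769764-53770013 (*Irf1*), chr8:120736108-120736357 (*Irf8*), chr3:142620413-142620662 (*Gbp2*) and chr11:58199306-58199555 (*Igtp*).
Irf1: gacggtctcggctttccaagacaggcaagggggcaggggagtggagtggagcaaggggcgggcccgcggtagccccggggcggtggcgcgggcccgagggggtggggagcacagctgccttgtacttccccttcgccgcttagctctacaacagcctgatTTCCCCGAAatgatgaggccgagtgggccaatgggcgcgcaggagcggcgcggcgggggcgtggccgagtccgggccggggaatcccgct
Irf8: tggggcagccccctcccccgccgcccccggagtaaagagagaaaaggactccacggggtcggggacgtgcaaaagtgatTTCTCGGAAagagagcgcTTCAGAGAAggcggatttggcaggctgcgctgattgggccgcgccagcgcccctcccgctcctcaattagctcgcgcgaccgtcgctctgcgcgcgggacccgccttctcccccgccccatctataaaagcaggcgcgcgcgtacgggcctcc
Gbp2: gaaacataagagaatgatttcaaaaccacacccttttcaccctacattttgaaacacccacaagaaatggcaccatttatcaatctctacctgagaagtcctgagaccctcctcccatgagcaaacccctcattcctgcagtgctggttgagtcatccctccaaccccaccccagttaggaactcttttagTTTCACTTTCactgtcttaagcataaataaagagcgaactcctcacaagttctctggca
Igtp: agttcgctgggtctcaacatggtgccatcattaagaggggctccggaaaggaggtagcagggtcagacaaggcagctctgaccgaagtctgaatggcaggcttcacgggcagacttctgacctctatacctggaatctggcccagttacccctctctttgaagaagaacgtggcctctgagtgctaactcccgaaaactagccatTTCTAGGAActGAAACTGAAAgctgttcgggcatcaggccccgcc

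Both strands were searched, and no match overlapped another in these 4 windows. *Irf1* held 1 GAS match at positions -90 to -82 from the start site, and *Irf8* held 2, at -171 to -163 and at -153 to -145, while the other RefSeq start of each gene held none. *Gbp2* held 1 ISRE match, on the reverse strand, at -59 to -50. *Igtp* held a GAS match at -45 to -37 followed by an ISRE match at -34 to -25. RefSeq promoters matched 9 of the 12 genes that led in both libraries. On either strand, 5 of these 9 held GAS letters (*Gbp5*, *Igtp*, *Irf1*, *Irf8* and *Lta*) and 3 held ISRE letters (*Gbp2*, *Gbp5* and *Igtp*), while *Ifi47*, *Psmb9* and *Tap1* held neither. Among all 27025 genes with a promoter in the table, 8.13% held GAS letters and 3.46% held ISRE letters in a window of this length. The letters GGTGTGA, the core that T-box factors such as T-bet recognise, were in 0 of the 9 promoters and in 3.84% of all. A match is a run of letters, not a site known to be bound.

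Stimulated WT cells carried *Tbx21* UMIs more often than IFT20-KO cells. The share was 10.97% in WT (95% interval 10.3 to 11.7, exact Clopper-Pearson) and 1.31% in IFT20-KO (1.06 to 1.60), a WT to IFT20-KO ratio of 8.37. In the unstimulated WT library, whose naive cells should mostly lack the gene, it was 0.171% (9 of 5263 cells, 0.0782 to 0.324). The median cell held 13952, 11716 and 5233 UMIs in these libraries, in that order, and a deeper cell is more likely to show a UMI of any gene.

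When every cell was reduced at random to the UMI minimum, the shares were 4.10% in WT (3.67 to 4.57), 0.469% in IFT20-KO (0.325 to 0.655) and 0.152% in unstimulated WT (0.0657 to 0.299), a WT to IFT20-KO ratio of 8.74. The intervals of the 3 libraries did not overlap. Among cells with an *Il2ra* UMI and no *Il7r* UMI, which encode the interleukin-2 receptor chain gained and the interleukin-7 receptor chain lost on activation, the shares were 12.1% in WT and 1.32% in IFT20-KO, a ratio of 9.15. This restriction kept 5706 of 7602 cells of WT and 5288 of 7244 of IFT20-KO, so most cells were the same ones. The part of activation in the gap between the genotypes was not tested. With 2 or more *Tbx21* UMIs required, the shares were 4.31% in WT and 0.235% in IFT20-KO, a proportionally wider gap.

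The share was higher in deeper cells of WT, from 3.78% below 6000 UMIs to 17.7% at 20000 to 30000. In IFT20-KO it went from 0.903% to 3.31% over the same classes. At each depth the WT share was above that of IFT20-KO, and only in the class below 6000 UMIs did their intervals overlap.

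**Figure D1:**
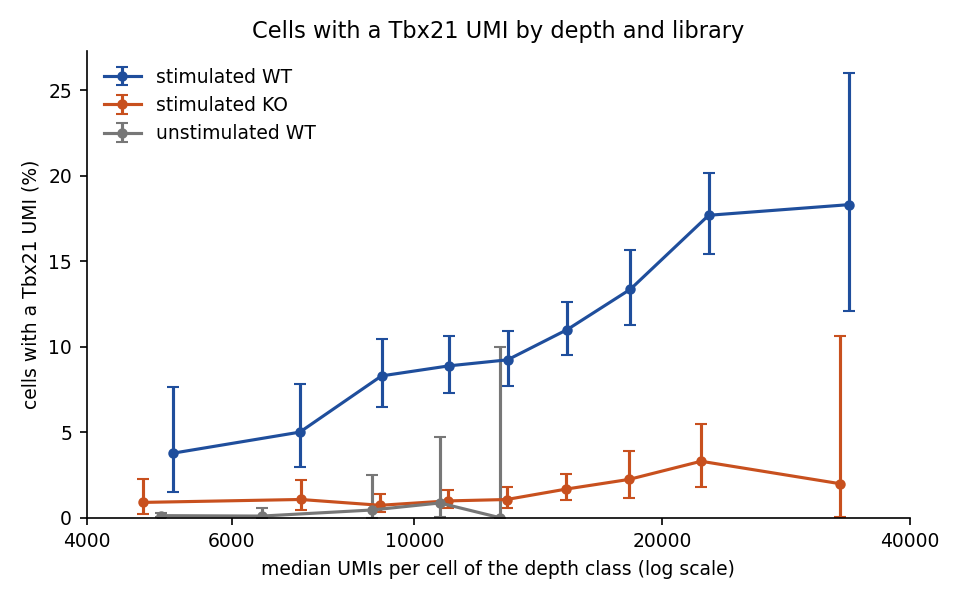
Percent of cells with a *Tbx21* UMI (vertical axis) against the median UMIs per cell of each depth class (horizontal axis, log scale) for the 3 libraries, with exact 95% intervals that cover counting error only. WT (blue) rises from 3.78% to 18.3%, while IFT20-KO (orange) stays at or below 3.31% and unstimulated WT (grey) below 1% in the classes drawn for it, which end at 14000 UMIs.

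Most *Tbx21*-positive cells held a single *Tbx21* UMI. In WT, 506 cells had 1, 182 had 2 and 146 had 3 or more, with a highest count of 15. In IFT20-KO, 78 cells had 1, 13 had 2 and 4 had 3 or more, with a highest count of 5. As the cells were selected on these counts, the level of *Tbx21* itself, 107 counts per 1000000 UMIs (CPM) in the positive cells of WT and 85.1 CPM in those of IFT20-KO, is a description only. The shallowest positive cells had 4618 UMIs in WT and 5269 in IFT20-KO, and the deepest ones left out by the UMI minimum had 3999 and 3902.

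Positive cells were deeper than zero cells, with medians of 15482 against 13771 UMIs in WT and 13788 against 11692 in IFT20-KO. For that reason each gene was compared with what as many zero cells of the same library and depth hold. The libraries shared some barcodes, 125 between the WT libraries, 141 between unstimulated WT and IFT20-KO, and 207 between stimulated WT and IFT20-KO, and 22 WT positive cells had a barcode that also occurs in the IFT20-KO library, but 0 barcodes were positive in both. Mitochondrial UMIs had a median of 1.26% in positive and in zero cells of WT, and of 1.05% and 1.08% in IFT20-KO.

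*Ift20* checked the genotype. In WT it stood at 73.7 CPM in positive cells (95% Poisson interval 69.2 to 78.3) and 77.6 CPM in zero cells. In IFT20-KO it stood at 8.65 CPM in positive cells (4.47 to 15.1, from 12 UMIs in 10 of the 95 cells) and 6.74 CPM in zero cells. The UMIs are counted over the whole gene, of which the floxed allele loses only some exons, so a UMI in an IFT20-KO cell does not by itself mean an intact allele.

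Positive cells of both libraries carried T cell receptor transcripts. *Cd3e* was detected in 833 of 834 positive cells of WT and in 94 of 95 of IFT20-KO, and *Cd4* at 104 and 119 CPM. Of the 10 genes of the CD4 T cell list only *Trbc1*, a T cell receptor constant region, passed the ratio used below, in WT (-0.34). The list summed to 4146 CPM in positive against 4592 CPM in zero cells of WT, and to 4296 against 4615 CPM in IFT20-KO, led by *Cd3d* or *Cd3e*. Defining markers of other cells were at or near 0, and the part of the few such UMIs in the results was not tested, except that the comparisons were repeated without the cells that hold them. *Ncr1*, *Klrb1c* and *Gzma* of natural killer cells were at 0 UMIs in every arm of the stimulated libraries, and the list of 14 natural killer and innate-like genes summed to 7.22 CPM in positive and 5.06 CPM in zero cells of WT, mostly *Eomes*. In IFT20-KO it summed to 12.3 and 3.16 CPM, all of it *Eomes* in positive cells.

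The CD8 list was nearly all *Cd8b1*, at 9.38 CPM in positive and 8.84 CPM in zero cells of WT, with 2 UMIs of *Cd8a* in positive cells. In IFT20-KO *Cd8b1* was at 7.21 and 10.7 CPM, with 1 UMI of *Cd8a* in positive cells. The B cell list was led by *Ighm* and summed to 196 and 188 CPM in WT and to 188 and 203 CPM in IFT20-KO, with *Ms4a1* at 0. Of its 2 counted genes *Ighm* passed 0.32 in no comparison. The other, *Cd74*, the invariant chain of class II molecules, had log2 ratios of 0.54 in WT (55.4 against 38.1 CPM) and -0.15 in IFT20-KO, and of -0.65 between the positive cells of IFT20-KO and WT. The myeloid list was led by *Cst3* and summed to 75.9 and 78.6 CPM in WT and to 74.97 and 83.2 CPM in IFT20-KO, with *Lyz2* at 0. Erythroid and platelet genes were at 0 throughout, and the 6 γδ T cell genes summed to 0.577 and 0.831 CPM in WT and to 2.16 and 1.28 CPM in IFT20-KO. *Foxp3*, the regulatory T cell factor, was found in 2.76% of positive and 1.86% of all zero cells of WT, and in 6.32% (6 cells) and 2.90% of IFT20-KO. The 8 regulatory T cell genes, mostly *Il2ra*, summed to 280 and 221 CPM in WT and to 250 and 239 CPM in IFT20-KO.

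Of the markers given for these cells, *Ly6a* was abundant and *Cxcr3* was not. *Ly6a*, which encodes Sca-1, a surface protein inducible by interferon, stood at 818 CPM in positive cells of WT against 227 CPM in zero cells of the same depth. In IFT20-KO it stood at 351 CPM against 37.5 CPM. *Cxcr3*, the chemokine receptor of differentiated Th1 cells, was found in only 9 of 834 positive cells of WT (1.08%, 20 UMIs, of which 7 in 1 cell), and 0.872% of zero cells held it. It was found in 0 of 95 positive cells of IFT20-KO, which allows a level of up to 2.16 CPM by the limit of 3 counts. *Ifng* itself, the Th1 cytokine, was also rare, in 9 of 834 (1.08%) and 2 of 95 (2.11%) positive cells. It was rarer still in zero cells, in 0.266% of those of WT and 0.112% of those of IFT20-KO. *Cxcr3* and *Ifng*, transcripts of a differentiated Th1 cell, were thus not detected in most of the cells at this depth.

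The first comparison asked which other transcripts accompany *Tbx21* within a library. A gene was counted as higher or lower where its log2 ratio passed 0.32 up or down, provided it reached 20 CPM in one arm or both. In WT, 132 of 5014 genes were higher in positive cells (2.63%) and 40 were lower (0.798%), with a median log2 ratio of -0.01 over all genes. In IFT20-KO, with 95 cells, 287 of 5169 were higher (5.55%) and 338 lower (6.54%). With so few UMIs many of these ratios lie within counting error: the interval was clear of 0 for 178 of the higher and 123 of the lower genes in IFT20-KO, but for all 132 and all 40 in WT.

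Among 4921 genes counted in both libraries, 113 were higher in WT, and 100 of these were above 0 in IFT20-KO, 59 of them past 0.32. Of 39 that were lower in WT, 35 were below 0 in IFT20-KO, 18 of them beyond the threshold. Of all these genes 47.3% were above 0 in IFT20-KO. The libraries share no cells, and across genes, which are not independent, the ratios of WT and IFT20-KO had a Pearson r of 0.453 and a Spearman rho of 0.223.

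**Figure D2:**
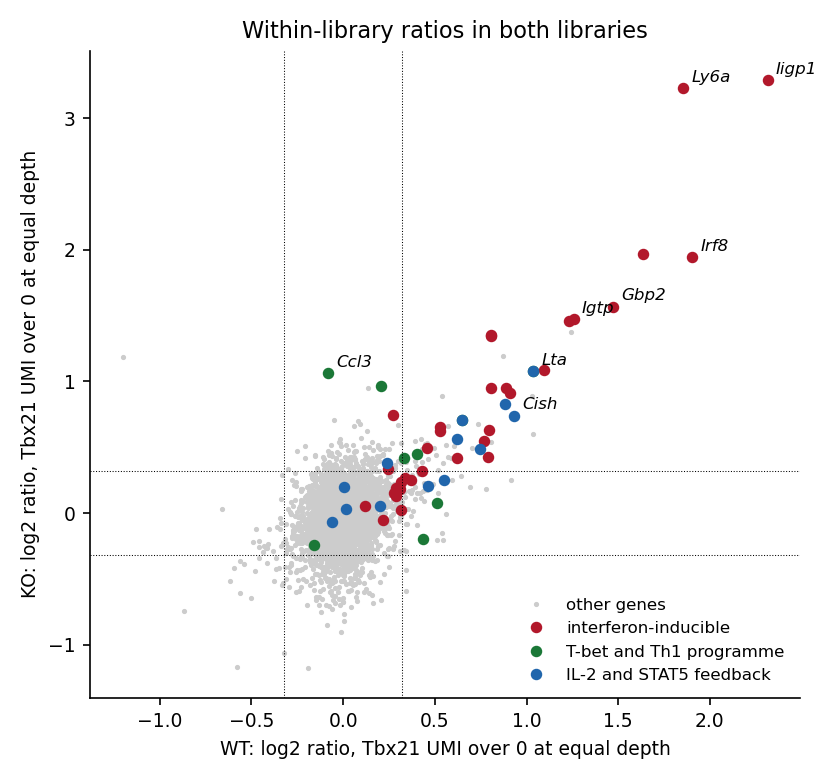
Log2 ratio of positive over depth-matched zero cells in WT (horizontal axis) and IFT20-KO (vertical axis) for 4921 genes, with 3 gene lists in colour (genes of the interferon list are drawn as such only, and those on both other lists in blue) and dotted lines at the ratio past which genes were counted. Many interferon-inducible genes (red) lie in the upper right, among them *Iigp1*, *Ly6a*, *Irf8*, *Irgm1* and *Gbp2*, while most other genes lie near 0 in WT and spread more widely in IFT20-KO.

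Most of the interferon-inducible genes counted were higher in positive cells of both libraries. In WT, 28 of the 39 counted were higher and 0 lower, with a median log2 ratio of 0.68. In IFT20-KO, 23 of 34 were higher and 0 lower, with a median of 0.63. Some genes reached 20 CPM through positive cells only, among them *Iigp1* in both libraries and *Irgm1* in WT. Such a gene could not be counted as lower. Of all genes 2.63% and 5.55% were higher.

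The guanylate-binding and immunity-related GTPases, effectors of defence inside cells, were among the highest. *Gbp2* stood at 561 CPM in positive and 203 CPM in zero cells of WT, and at 291 and 98.1 CPM in IFT20-KO, log2 ratios of 1.47 (95% interval 1.43 to 1.51) and 1.57 (1.42 to 1.71). *Iigp1* stood at 57.2 and 11.5 CPM in WT and at 31.7 and 3.24 CPM in IFT20-KO, ratios of 4.97-fold (4.54 to 5.45) and 9.79-fold (7.09 to 13.5). *Igtp* (log2 ratio 1.26 in WT and 1.48 in IFT20-KO), *Irgm1* (1.63 and 1.97), *Gbp4* (1.23 and 1.46), *Gbp5* (1.09 and 1.09) and *Ifi47* (0.89 and 0.95) went the same way.

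The transcription factors of the pathway were higher too. *Irf8* stood at 157 against 42.1 CPM in WT and at 80.7 against 21.0 CPM in IFT20-KO, 3.74-fold (3.54 to 3.94) and 3.85-fold (3.17 to 4.66). *Irf1* had log2 ratios of 0.81 (0.74 to 0.87) and 1.36 (1.15 to 1.57). The intervals were wider in IFT20-KO, and that of *Irf1* lay above the interval of WT, a difference that was not tested.

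Antigen processing was represented by *Tap1*, the peptide transporter (log2 ratio 0.91 in both libraries), and *Psmb9*, an immunoproteasome subunit (0.80 and 0.95). The class I heavy chains and β2-microglobulin, which every cell expresses strongly, stayed under 0.32 in WT, at 0.31 for *H2-K1*, 0.29 for *H2-D1* and 0.28 for *B2m*. *Isg15*, a ubiquitin-like protein inducible by interferon, stood at 18.3 against 9.06 CPM in WT and at 4.33 against 4.38 CPM in IFT20-KO (6 UMIs), below the minimum of 20 CPM for counting.

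**Figure D3:**
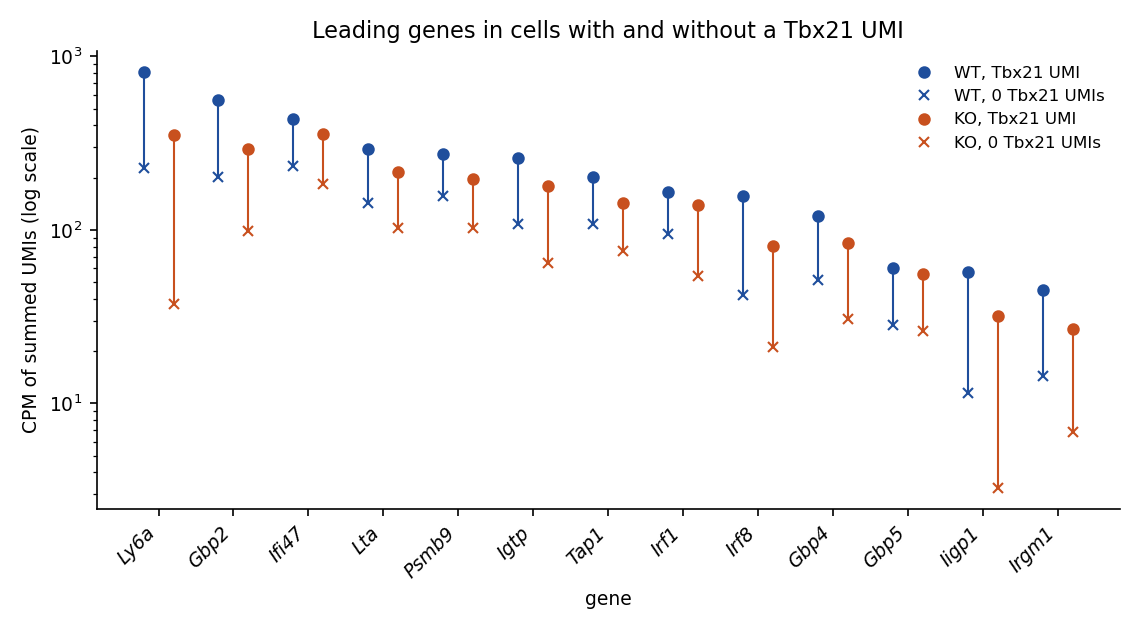
CPM of summed UMIs (log scale) of *Iigp1*, *Irgm1* and 11 of the 12 genes that led in both libraries, in *Tbx21*-positive cells (dots) and depth-matched zero cells (crosses) of WT (blue) and IFT20-KO (orange). For each gene the dot lies above the cross in both libraries, as for *Ly6a* at 818 and 227 CPM in WT and 351 and 37.5 CPM in IFT20-KO.

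The positive cells varied among themselves. In WT, *Ly6a* had a median of 8 UMIs and quartiles of 2 and 20, with 716 of 834 cells (85.9%) holding any, against a median of 1 in zero cells. *Gbp2* had a median of 5 UMIs with quartiles of 1 and 13. Zero cells reached the positive cells' median in 14.9% for *Ly6a* and 19.4% for *Gbp2*, so the distributions overlapped. In IFT20-KO, 60 of 95 positive cells (63.2%) held *Ly6a*, against 18.9% of zero cells, and 41.1% held *Irf8*, against 14.8%.

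Several interferon-inducible genes had larger ratios in WT cells with more *Tbx21* UMIs. *Irf8* went from 115.5 CPM in cells with 1 *Tbx21* UMI to 193 CPM with 2 and 243 CPM with 3 or more, log2 ratios of 1.45, 2.22 and 2.52 to zero cells of matched depth. *Iigp1* went from 1.86 to 2.42 and 3.18, and *Igtp* from 1.04 to 1.35 and 1.74. *Icam1*, the adhesion molecule, went from 1.15 to 1.39 and 2.75, and *Nr4a1*, an early target of T cell receptor signals, from 0.49 to 0.98 and 1.38. *Ly6a* changed less, from 1.68 to 2.06 and 2.12. *Il2*, the T cell growth cytokine, stood at -0.38, -0.09 and -1.06, with no steady order. Of the Th1 list, *Lta* stood at 0.91, 1.15 and 1.24, *Tnf* at 0.41, 0.60 and 0.67, and *Il12rb1* at 0.42, 0.17 and 0.24, so not every gene was larger with each step. *Ccl4*, at 0.48, -0.09 and -0.45, and *Ccl3*, at 0.42, -0.85 and -1.70, were lower with each step. For these, 1 cell held 14.1% and 43.8% of the UMIs of WT positive cells. The number of *Tbx21* UMIs was counted in the same cells, so these values describe how the transcripts go together. In IFT20-KO these classes held 78, 13 and 4 cells. There *Ly6a* stood at 2.89, 3.82 and 5.21, *Gbp2* at 1.14, 2.55 and 3.15, and *Irf8* at 1.80, 1.76 and 3.41, the last from 16 UMIs in the 4 cells.

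**Figure D4:**
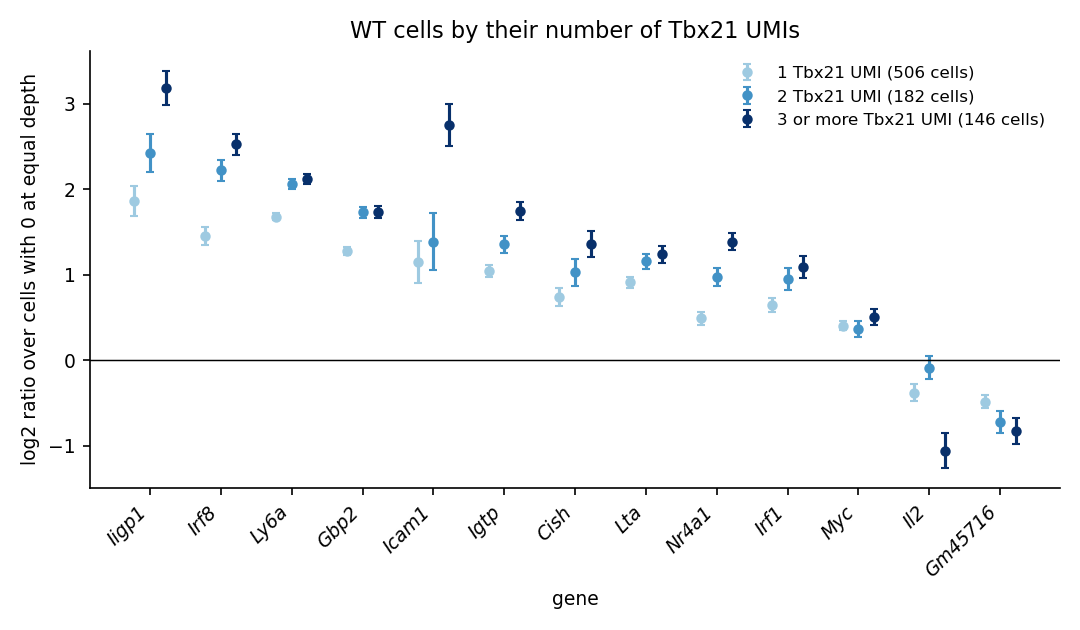
Log2 ratio to depth-matched zero cells (vertical axis) for 13 genes in WT cells with 1 (506 cells), 2 (182 cells) or 3 or more *Tbx21* UMIs (146 cells), with 95% counting intervals. *Iigp1*, *Irf8*, *Igtp* and *Nr4a1* are higher with each step (*Irf8* 1.45, 2.22 and 2.52), *Myc* is not, and *Il2* and *Gm45716* lie below 0.

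Of the T-bet and Th1 list, 7 of the 11 genes counted in WT were higher and 0 lower (median log2 ratio 0.40), and 7 of 10 in IFT20-KO (0.58), where 2 of the 7 were *Ccl3* and *Ccl4*. Of all genes 2.63% and 5.55% were higher. The lists share genes: *Ly6a* is on this list and the interferon list, *Il2rb* and *Lta* on this list and that of interleukin-2. *Lta*, which encodes lymphotoxin-α, stood at 293 against 143 CPM in WT and at 217 against 103 CPM in IFT20-KO, log2 ratios of 1.04 (0.98 to 1.09) and 1.08 (0.91 to 1.248). In IFT20-KO 1 cell held 26.2% of the *Lta* UMIs, and without the highest cell of each arm the ratio was 0.66. *Il2rb*, the receptor chain shared by interleukin-2 and interleukin-15 and a target of T-bet, had ratios of 0.65 and 0.71. *Tnf* had 0.51 (0.43 to 0.59) in WT and 0.08 (-0.20 to 0.35) in IFT20-KO, *Id2* 0.40 and 0.45, *Il12rb1* 0.33 and 0.41, and *Bhlhe40* 0.44 and -0.19. Without the highest cell of each arm, 3 of the 7 higher in IFT20-KO were no longer past 0.32, *Id2* at 0.24, *Il12rb1* at 0.26 and *Ccl3* at -0.14, and *Bhlhe40* was at -0.38.

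*Il12rb2*, the inducible chain of the interleukin-12 receptor, was rare but more frequent in positive cells, in 4.56% against 1.46% of all zero cells of WT and in 4.21% (4 cells) against 0.434% of IFT20-KO. *Stat4*, which carries the interleukin-12 signal, was not higher, at 37.5 against 41.9 CPM in WT and 31.0 against 36.7 CPM in IFT20-KO. Several genes of this list rested on very few cells. Of the 218 *Ifng* UMIs of WT positive cells, 170 were in 1 cell, and of the 198 *Xcl1* UMIs 179 were in 1 cell. In IFT20-KO, 45 of 78 *Ccl3* UMIs, 140 of 455 *Ccl4* UMIs, 11 of 21 *Nkg7* UMIs and 8 of 17 *Eomes* UMIs were in 1 cell each. No ratio of these genes in the library named describes the cells as a group. In WT, *Eomes* was at 0.82 (0.75 without the highest cell of each arm) and *Nkg7* at 1.39 (0.96), both below the minimum of 20 CPM. *Eomes* was at -0.18 in WT cells with 0 *Mki67* and 0 *Top2a* UMIs. *Ccl4* and *Ccl3* were at 0.21 (0.04) and -0.08 (-0.72) in WT.

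Of 14 feedback genes of interleukin-2 and STAT5 signaling, 9 were higher in WT (median 0.58) and 8 in IFT20-KO (0.44), with 0 lower in either, where 2.63% and 5.55% of all genes were higher. *Cish*, an inhibitor induced by STAT5, stood at 113 against 59.3 CPM in WT and 93.7 against 56.1 CPM in IFT20-KO, log2 ratios of 0.93 (0.85 to 1.01) and 0.74 (0.49 to 0.99). When cells were thinned to the UMI minimum, which left 34 positive cells of IFT20-KO, its ratio there was -0.17. *Socs1*, an inhibitor of both interferon and interleukin-2 signaling that is also on the interferon list, had 0.80 and 0.63. The kinase *Pim1* had 0.74 and 0.49, and *Il2ra* 0.46 (0.41 to 0.52) and 0.21 (0.04 to 0.38). *Il2* itself was lower in WT, at 108 against 144 CPM (-0.41, -0.49 to -0.33), and stood at 74.3 against 87.2 CPM in IFT20-KO (-0.23, -0.51 to 0.05). In IFT20-KO 1 positive cell held 35.0% of its UMIs, and without the highest cell of each arm the ratio was -0.80.

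Of 19 counted genes that encode T-bet-inducing receptors and their signaling, 7 were higher in WT and 5 in IFT20-KO, and 0 were lower, where 2.63% and 5.55% of all genes were higher. Those higher in WT included *Irf1*, *Il2rb*, *Notch1*, *Stat3*, *Il2ra* and *Il12rb1*. The interferon-γ receptor chain *Ifngr1* stood at 21.0 against 21.2 CPM in WT and at 25.2 against 25.4 CPM in IFT20-KO, and the kinase *Jak1* at 173 CPM in both arms of WT and at 193 against 194 CPM in IFT20-KO.

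Of 35 early activation genes, 11 were higher in WT (median 0.20) and 1, *Il2*, lower, where 2.63% of all genes were higher. In IFT20-KO 6 of 35 were higher (median 0.04) and 1, *Ctla4*, an inhibitory receptor gene, lower, where 5.55% of all genes were higher. The difference between the libraries was not tested. *Irf8*, which is on this list too, was the highest in both. *Nr4a1* had log2 ratios of 0.81 (0.75 to 0.86) and 0.54 (0.34 to 0.74), *Myc* of 0.41 and 0.30, and *Cd69* of 0.34 and 0.38. Without the highest cell of each arm *Nr4a1* was at 0.33 and *Cd69* at 0.26 in IFT20-KO. The inhibitory receptor gene *Pdcd1* had -0.25 and -0.23.

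The counts of the next lists stand beside 2.63% of all genes higher and 0.798% lower in WT, and 5.55% and 6.54% in IFT20-KO. Memory-like and adhesion genes were counted for 14 genes in WT, 4 of them higher and 0 lower, and for 13 in IFT20-KO, 3 higher and 1 lower. *Icam1* was the highest in WT, at 29.2 against 9.21 CPM (1.67, 1.49 to 1.84), where it reached the minimum for counting through positive cells only. In IFT20-KO *Icam1* stood at 16.6 against 9.68 CPM (0.78, 0.18 to 1.38), below the minimum for counting and at -0.56 in cells with 0 *Mki67* and 0 *Top2a* UMIs. *Vim*, which encodes vimentin, had 1.04 in WT and 0.60 in IFT20-KO, where 1 cell held 34.7% of its UMIs and the ratio without the highest cell of each arm was 0.0024. Of naive genes, 2 of 19 were higher in WT (among them *Dapl1* at 0.38) and 1, *Txnip*, lower, against 1 higher (*Tcf7* at 0.36) and 4 lower of 20 in IFT20-KO. Of other helper lineages, *Sh2d1a*, the adaptor SAP, was the only gene of 4 counted that was higher in WT, at 0.87. It had 1.19 in IFT20-KO, where the ratio without the highest cell of each arm was 0.54.

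Most cell cycle and metabolic genes passed 0.32 in neither direction in WT, where 2.63% of all genes were higher and 0.798% lower. In IFT20-KO these shares of all genes were 5.55% and 6.54%. Of S phase genes 0 of 35 were higher or lower in WT, and 2 higher and 2 lower of 37 in IFT20-KO. Of these S phase genes 31 of 35 were above 0 in WT (median 0.09, against -0.01 over all genes) and 17 of 37 in IFT20-KO. Of G2/M genes 2 of 16 were higher in WT (*Cdk1* and *Top2a*, both 0.34) and 2 of 17 in IFT20-KO, where 1 was lower. Of 15 glycolysis and lactate genes 0 were higher and 1, the lactate transporter gene *Slc16a3*, was lower in each library. Of 14 genes of PI3K-AKT-mTOR signaling 0 were higher or lower in WT, and 1 higher and 1 lower in IFT20-KO. Of 4 intraflagellar transport genes in WT and 3 in IFT20-KO, 0 passed 0.32 in either direction.

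The 12 lowest genes in both libraries had small ratios. *Gm45716* stood at 166 against 250.4 CPM in WT and 178 against 238 CPM in IFT20-KO, -0.60 (-0.66 to -0.53) and -0.42 (-0.60 to -0.24). *Rgcc*, a regulator of the cell cycle, had -0.33 and -0.53, *Ephx1*, which encodes an epoxide hydrolase, -0.48 and -0.44, *Pou2f2*, the factor Oct-2, -0.37 and -0.34, and *Ubash3b*, a phosphatase that restrains T cell receptor signals, -0.43 and -0.25. *Prelid2*, *Mmd*, *Nrn1*, *Vsir*, *Map7d1*, *Vgll4* and *Stap1* made up the rest, between -0.27 and -0.46 in WT and between -0.27 and -0.38 in IFT20-KO. Without the highest cell of each arm, *Prelid2* and *Nrn1* were at -0.57 and -0.46 in IFT20-KO.

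The second comparison set positive cells of IFT20-KO against those of WT. Of 5178 genes, 434 were higher in IFT20-KO by the same log2 ratio (8.38%) and 461 lower (8.9%), with the interval clear of 0 for 203 and 255. Without the 22 WT cells whose barcode also occurs in the IFT20-KO library, 442 were higher and 462 lower, and *Ly6a*, given below, was at -1.21. Between zero cells of the libraries, which are far more numerous, 107 of 5055 were higher and 83 lower.

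Of 40 interferon-inducible genes, 22 were lower in positive cells of IFT20-KO and 0 higher, where 8.9% of all genes were lower. Their median log2 ratio was -0.40. In zero cells 16 of 32 were lower and 0 higher, with a median of -0.32, where 83 of all 5055 genes were lower. The IFT20-KO to WT log2 ratio of *Irf8* was -0.96 (-1.25 to -0.69) in positive and -1.01 in zero cells, and that of *Gbp2* was -0.95 (-1.09 to -0.80) and -1.09. With 2 or more *Tbx21* UMIs required, which left 17 cells of IFT20-KO, the ratio of *Gbp2* between positive cells was -0.038. *Zbp1*, a sensor of nucleic acids, had the lowest ratio in positive cells, -1.25 (-1.76 to -0.78), against -0.95 in zero cells.

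For *Ly6a*, *Iigp1* and *Irf1* the gap was smaller in positive than in zero cells. *Ly6a* had -1.22 (-1.35 to -1.09) and -2.73, *Iigp1* -0.85 (-1.32 to -0.41) and -1.90, and *Irf1* -0.25 (-0.47 to -0.04) and -0.82. *Irf1* was at 0.34 between positive cells thinned to the UMI minimum. These differences between positive and zero cells were not tested.

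Positive cells of IFT20-KO exceeded the zero cells of WT in 26 of 35 interferon-inducible genes, with a median log2 ratio of 0.15. Past the same threshold, 12 genes were higher and 4 lower. *Irf8* stood at 80.7 against 43.1 CPM. In 25 of the 35 genes the order of levels was positive WT, positive IFT20-KO, zero WT and zero IFT20-KO cells. No share over all genes is given for this comparison, so these counts do not set the lists apart from other genes. Depth was not matched here, with medians of 13788 UMIs in positive cells of IFT20-KO and 13771 in zero cells of WT. Of 35 early activation genes, 17 exceeded the zero cells of WT and 8 had that order, while 2 were higher and 5 lower past the threshold. Of the Th1 list 7 of 10 exceeded them and 3 had that order, and of the interleukin-2 list 12 of 14 and 6.

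**Figure D5:**
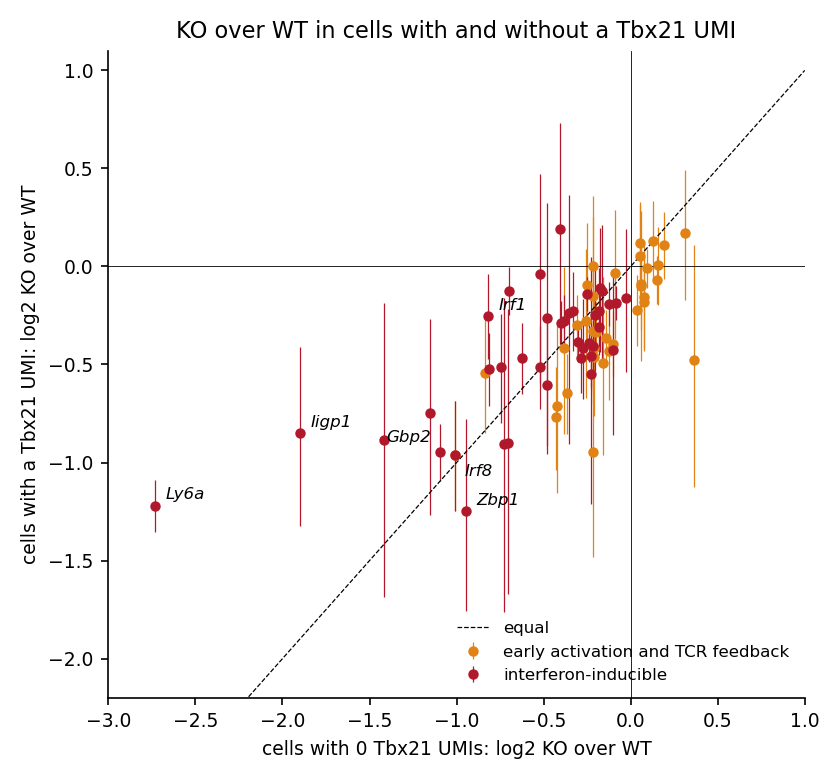
Log2 ratio of IFT20-KO over WT in *Tbx21*-positive cells (vertical axis, with exact 95% counting intervals) against the same ratio in zero cells (horizontal axis) for interferon-inducible (red) and early activation genes (orange) with at least 20 CPM in positive cells, and a dashed line of equal ratios. Nearly all red points lie below 0 on both axes, and *Ly6a* (-1.22 and -2.73) and *Iigp1* (-0.85 and -1.90) lie furthest above the dashed line.

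Of 35 early activation genes, 16 were lower in positive cells of IFT20-KO, 0 higher and 19 neither, where 8.9% of all genes were lower. Their median was -0.28, against -0.14 in zero cells, with 6 lower and 1 higher of 35. Of all 5055 genes counted in zero cells, 83 were lower and 107 higher. *Nr4a3* had -0.95 (-1.48 to -0.46), *Cd40lg*, which encodes CD40 ligand, -0.77 (-1.04 to -0.51), *Nr4a1* -0.65 (-0.85 to -0.45) and *Il2* -0.55 (-0.85 to -0.26), beside -0.22, -0.43, -0.37 and -0.84 in zero cells. Of the Th1 list 2 genes were higher and 6 lower of 11, with a median of -0.42, against 0 and 4 of 10 in zero cells (-0.19). With 2 or more *Tbx21* UMIs required, which left 17 cells of IFT20-KO, the median was 0.36. The 2 higher genes were *Ccl4* and *Ccl3*, of which 1 cell held 30.8% and 57.7% of the UMIs of IFT20-KO. *Lta* had -0.43 and *Tnf* -0.64. Without the highest cell of each arm *Lta* was at -0.83 and *Il2* at -0.94, and with 2 or more *Tbx21* UMIs they were at 0.59 and 0.56. The memory-like list had 8 of 14 lower and 1 higher (-0.39), against 4 of 13 lower in zero cells (-0.19), and its median was 0.22 when cells were thinned to the UMI minimum, which left 34 cells of IFT20-KO. The interleukin-2 and STAT5 list had 2 of 14 lower and 0 higher (-0.06).

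Between positive cells 8.38% of all genes were higher and 8.9% lower in IFT20-KO. S phase genes were higher for 6 and lower for 2 of 36, with a median of 0.13 in positive and 0.22 in zero cells. G2/M genes were higher for 3 and lower for 1 of 17, with medians of 0.09 and 0.18. Of PI3K-AKT-mTOR genes 0 of 14 passed 0.32 in either direction in positive cells, and of glycolysis genes 3 of 15 were lower.

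The 8 genes with the lowest IFT20-KO to WT ratios also included *Dapl1* (52.6 against 105 CPM) and *Cr1l* (-0.90), a complement regulator whose ratio was -0.12 in zero cells. The 8 highest were *Ckb*, a creatine kinase (0.85, and 0.62 in zero cells), *Akr1c18* (0.84), *Nrn1* (0.81, and 0.72), the chemokine genes *Ccl4* (0.76) and *Ccl3* (0.70), the tetraspanin *Cd81* (0.67, and 0.67), *Adi1* (0.66) and *Ldb1* (0.66). *Ckb* was at -0.39 in thinned cells, and *Ldb1* at -0.42 with 2 or more *Tbx21* UMIs. For *Akr1c18* 1 cell held 52.2% of the UMIs of IFT20-KO, and without the highest cell of each arm its ratio was -0.046. *Ccl4* and *Ccl3* stood at 0.45 and 0.29 without those cells, and at -0.011 and -0.52 in cells with 0 *Mki67* and 0 *Top2a* UMIs.

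The unstimulated WT library held 9 *Tbx21*-positive cells. *Cxcr3* was found in 7 of the 9 cells (77.8%, exact interval 40.0 to 97.2) at 416 CPM, against 1.08% of stimulated positive cells of WT and 0.969% of all unstimulated cells. *Nkg7*, a gene of cytotoxic granules, was found in 6 of the 9 (66.7%, 29.9 to 92.5), against 3.72% and 0.646%. *Ly6a* was found in 7 of the 9 at 756 CPM, near the 818 CPM of stimulated positive cells of WT and above the 358 CPM of all unstimulated cells. *Gbp2* and *Irf8* stood at 75.6 and 37.8 CPM, from 6 and 3 UMIs, beside 52.5 and 3.51 CPM in all unstimulated cells and 561 and 157 CPM in stimulated positive cells. The cells are few, and the counts allow no finer statement.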

How the data were processed

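The data were 3 single-cell libraries (10x Genomics), 1 per group as the labels define the groups. Per the file headers the counts were made with Cell Ranger 3.1.0, against mm10 according to the submitters' processing notes. The authors deposited UMI counts per gene and called barcode, without normalization. The labels and the methods name different capture chemistries (5′ and 3′), so the end of the transcript that was read is uncertain. Everything after the counts was computed anew in Python 3.11.15 (numpy 2.4.6, scipy 1.17.1, pandas 2.3.3, matplotlib 3.10.9). The files held 37325332 UMIs for WT without stimulation, 117734032 for WT with stimulation and 106459650 for IFT20-KO.

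Zero cells were weighted to positive cells over 20 depth classes of equal cell number. Both arms were scaled to 1000000 UMIs, and genes that reached 20 CPM in one arm or both were counted where the log2 ratio passed 0.32. *Tbx21* was left out, and no ratio is given where an arm had 3 or fewer UMIs. Intervals are at the 95% level: exact Poisson for CPM, exact binomial for IFT20-KO over WT, exact Clopper-Pearson for shares, and a log-scale interval from the counts for depth-matched ratios. UMI counts of different genes are compared per gene only, without correction for length.

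The members and the 22 gene lists were chosen with earlier results of these data known. Named genes are those of the lists, the 12 highest and 12 lowest by the smaller of the WT and IFT20-KO ratios (same sign, at least 50 CPM), and the 8 highest and 8 lowest IFT20-KO over WT, without T cell receptor and immunoglobulin segments and *Ift20*. No doublet caller was run. The alternatives were other cell filters, thinning of every cell to the UMI minimum, 2 or more *Tbx21* UMIs, other scaling and other minimums. The functions were tested on simulated data. Some items are not reported here.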

Additional observations from a re-analysis of the deposited data

Results flagged for a closer look

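Barcodes outside the filter also held *Tbx21* UMIs and were not used in the comparisons. They were 69 of 2718 in stimulated WT (2.54%), 36 of 6688 in IFT20-KO (0.538%) and 5 of 2990 in unstimulated WT (0.167%), with median depths of 1820, 2420 and 2927 UMIs.

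*Xcl1*, which encodes the chemokine lymphotactin, had opposite log2 ratios in the libraries, 0.98 in WT and -1.62 in IFT20-KO (from 6 UMIs), a difference that was not tested. In WT 1 positive cell held 90.4% of its UMIs, and without the highest cell of each arm the WT ratio was -2.23.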

How the results depend on the processing

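No paired analysis was possible because each group has 1 library, and leaving out a replicate was not possible for the same reason. Values that moved by less than their counting interval were counted over the alternatives. Among genes they were 416 of 558 in WT, 441 of 541 in IFT20-KO and 268 of 323 between the genotypes. Among list medians they were 109 of 110, 103 of 110 and 118 of 121. Part of the counts among genes was fixed beforehand. A minimum of 50 CPM decides which genes are counted and cannot change a gene's ratio. Other scaling could move ratios only little. The median log2 ratio over all genes was already -0.01 in WT, -0.0044 in IFT20-KO and 0.003 between the genotypes. *Ly6a* stayed between 1.65 and 2.09 in WT and between 3.07 and 4.32 in IFT20-KO, *Irf8* between 1.87 and 2.37 and between 1.74 and 2.44. Between the genotypes, *Ly6a* ranged from -1.50 to -0.51 and *Gbp2* from -1.32 to -0.038 over the alternatives.

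The counts of genes moved under these alternatives, and the cause was not tested. With every cell thinned to the UMI minimum, 482 genes were higher and 373 lower in WT, 1396 and 658 in IFT20-KO, and 1479 and 735 between the positive cells of the genotypes. With 2 or more *Tbx21* UMIs required they were 241 and 110, 1353 and 869, and 1334 and 930. With a minimum of 50 CPM they were 75 and 22, 76 and 75, and 95 and 182. In cells with 0 *Mki67* and 0 *Top2a* UMIs, 528 genes were higher in IFT20-KO and 682 between the genotypes. With the interval also clear of 0, an alternative added after the data were seen, they were 178 and 123 in IFT20-KO and 203 and 255 between the genotypes. These alternatives left 34, 17 and 59 positive cells of IFT20-KO when thinned, with 2 or more UMIs and without cycling cells. The share of cells with a *Tbx21* UMI was 4.10% in WT and 0.469% in IFT20-KO when thinned, 8.99% and 0.941% with the filter of the study's methods, and 4.31% and 0.235% for 2 or more UMIs, an alternative also added after the data were seen.

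Some log2 ratios changed sign, and the cause was not tested. In WT, *Eomes* was at -0.18 without cycling cells, and *Xcl1* at -2.79 with 2 or more *Tbx21* UMIs and -2.23 without the cell with the most UMIs of the gene in each arm (added after the data were seen). In IFT20-KO, *Cish* was at -0.17 when thinned, *Icam1* at -0.56 without cycling cells, *Ccl3* at -0.081 in cells with *Il2ra* and no *Il7r* and -0.14 without the highest cells, *Ccl4* at -0.17 with 2 or more UMIs, and *Vim* at -0.019 in cells with *Il2ra* and no *Il7r*. Between the genotypes, the Th1 list median was 0.36 with 2 or more UMIs and the memory-like median 0.22 when thinned. *Ckb* was at -0.39 and *Irgm1* at 0.18 when thinned, and *Ldb1* at -0.42, *Il2* at 0.56 and *Lta* at 0.59 with 2 or more UMIs. *Akr1c18* was at -0.43, *Ccl4* at -0.011 and *Ccl3* at -0.52 without cycling cells, *Ccl3* at -0.29 in cells with *Il2ra* and no *Il7r*, and *Akr1c18* at -0.12 without cells with a marker of another cell type and -0.046 without the highest cells.

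With 1 library per condition, no interval covers the spread between mice or libraries. Detection of *Tbx21* is incomplete at these depths, so zero cells include cells that hold the transcript. Most positive cells rest on 1 *Tbx21* UMI, which free RNA can also give, and the level of free RNA in the stimulated libraries was not estimated. The 95 positive cells of IFT20-KO set the precision of every comparison that uses them.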
